A study of Mus musculus with 4 samples.

Results

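The genes described here are 39 mouse interferon-stimulated genes, listed by symbol: genes that cells switch on after interferon binds its receptor. Of the 39 symbols, 37 were found among the 32285 genes of the deposited gene lists, and Mx1 and Mx2 were not analysed here. They were followed in cells of the fracture callus of aged mice (C57BL/6J, male, 20 months old, tibia broken), in 4 droplet single-cell RNA libraries. Libraries control 1 and control 2 came from mice given an empty control microgel, and adenosine 1 and adenosine 2 from mice given a microgel containing adenosine, and every callus was taken 7 days after treatment. All 4 libraries share the strain, sex, age and fracture, the lysis of red blood cells and the sort for viable cells with propidium iodide, and the labels name bone marrow as the tissue. Nothing in the labels tells if both libraries of a group come from different animals, so every p-value here reflects spread among libraries, which may be technical.

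Interferons are signalling proteins released when cells sense viral or misplaced nucleic acids. Type I interferons act through Ifnar1 and Ifnar2 and drive a complex with Stat2 and Irf9 that binds the interferon-stimulated response element (ISRE), whereas interferon gamma acts through Ifngr1 and Ifngr2 on genes that carry the gamma-activated site (GAS). The induced proteins block viral translation, replication and entry, sense nucleic acids, amplify the signal or attract lymphocytes, and myeloid cells of bone marrow and injured bone can carry many of them.

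The promoters of 30 of the 37 genes were matched by symbol in the RefSeq table of build GRCm38.p6, each running from 250 bases before to 50 bases after the gene's start. A core of the ISRE, GAAA and GAAA with any 2 bases between them (on the other strand TTTC and TTTC), lay in 16 of these 30 genes and in 3.99% of the 27025 genes of the table. A longer form, the core followed by CT, lay in 8 of 30 against 0.303%, and each such match also counts as a core. A GAS, TTC and GAA with any 3 bases between them, lay in 7 of 30 against 9.55%, and both strands were searched. The promoters of 5 genes are printed because they belong to genes whose levels across cell classes and libraries are described below, as the 250 bases before the start, 5′ to 3′ on the gene's strand, with the ISRE cores (for Irf1 the GAS) in capitals.
Isg15, chr4:156200819-156201068, minus strand: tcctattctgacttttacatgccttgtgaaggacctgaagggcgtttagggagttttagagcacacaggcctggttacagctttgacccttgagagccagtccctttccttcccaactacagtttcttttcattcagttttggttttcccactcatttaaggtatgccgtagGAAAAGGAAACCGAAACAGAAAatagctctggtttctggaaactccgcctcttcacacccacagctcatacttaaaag
Rsad2, chr12:26456453-26456702, minus strand: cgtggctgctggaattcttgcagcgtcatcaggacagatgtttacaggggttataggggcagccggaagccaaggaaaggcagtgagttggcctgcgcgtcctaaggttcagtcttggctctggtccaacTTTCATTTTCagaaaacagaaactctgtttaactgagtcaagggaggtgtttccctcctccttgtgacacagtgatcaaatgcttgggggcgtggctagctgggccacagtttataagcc
Ifit3, chr19:34583279-34583528, plus strand: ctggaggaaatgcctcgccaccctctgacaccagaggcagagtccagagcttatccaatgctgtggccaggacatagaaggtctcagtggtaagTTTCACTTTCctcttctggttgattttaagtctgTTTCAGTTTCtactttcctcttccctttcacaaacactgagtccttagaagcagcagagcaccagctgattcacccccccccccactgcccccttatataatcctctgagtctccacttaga
Cxcl10, chr5:92348890-92349139, minus strand: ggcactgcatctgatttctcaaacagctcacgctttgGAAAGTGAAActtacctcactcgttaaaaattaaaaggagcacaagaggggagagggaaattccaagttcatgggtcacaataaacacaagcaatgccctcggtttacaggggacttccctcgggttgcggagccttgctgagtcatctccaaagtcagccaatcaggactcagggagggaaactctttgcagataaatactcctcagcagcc
Irf1, chr11:53769764-53770013, plus strand: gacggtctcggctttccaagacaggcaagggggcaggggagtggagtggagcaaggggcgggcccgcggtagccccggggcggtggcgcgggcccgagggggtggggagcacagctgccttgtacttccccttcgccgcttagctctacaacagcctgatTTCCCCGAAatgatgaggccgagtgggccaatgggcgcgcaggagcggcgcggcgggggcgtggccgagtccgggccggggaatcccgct
In Isg15, 3 overlapping cores span bases 78 to 57 before the start, Ifit3 has cores at 156 to 147 and at 122 to 113 bases before it, and the GAS of Irf1 lies 90 to 82 bases before it. A match says only that these letters are present in the window.

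The libraries held 31330 cells after filtering (8695, 6282, 8217 and 8136), with median depths of 2996 to 4725 UMIs, and any pair of libraries shared 11 to 27 cell barcodes. Cells were assigned to classes by marker genes, none of which is an interferon-stimulated gene of the list. The 6 tested classes had at least 20 cells in every library: immature neutrophils (7247 cells), mature neutrophils (12242), classical monocytes (4289), conventional dendritic cells (321), B cells (1455) and T cells (1584), and all markers of each class were detected in it. Stromal cells of callus were scarce, with 24 mesenchymal, 13 endothelial and 19 osteoclast cells. Control 2 stood apart in its makeup, with mature neutrophils at 65.7% of its cells against 26.2% to 36.9% in the other libraries, 206 immature neutrophils against 2047 to 2527, and 38 T cells. Adenosine 2 held 1172 T cells, 14.4% of its cells, against at most 2.60% elsewhere. Most mature neutrophils of control 2 lay in clusters 4 and 5 (1947 and 1864 of 4127 cells), those of adenosine 2 in cluster 8 (1241 of 2128), and those of control 1 and adenosine 1 in clusters 0 and 3. Levels below are CPM, the UMIs of a gene per 1000000 UMIs of a class in a library, listed in the order control 1, control 2, adenosine 1 and adenosine 2. The class totals ran from 246321 UMIs (T cells of control 2) to 14781959 (classical monocytes of control 1), so that 3 UMIs correspond to 12.2 and 0.203 CPM at these extremes. Where a class is called highest or lowest below, it is so among the 6 tested classes unless others are named.

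The interferon-stimulated genes were unevenly spread over the cell classes. Summed over the 37 genes, levels in classical monocytes were 4715, 5615, 1675 and 6160.3 CPM. Conventional dendritic cells held 2628, 4852, 1841 and 3816 CPM and mature neutrophils 2073, 3924, 1143 and 5500.5 CPM. These 3 myeloid classes overlapped one another across libraries. Immature neutrophils held 1081, 1251, 786 and 2373 CPM, T cells 1152, 2582, 1014 and 1101 CPM and B cells 778, 906, 705 and 1364 CPM, and B cells were the lowest tested class in every library but adenosine 2, where T cells were. Libraries differed as well: classical monocytes of adenosine 1 (1675 CPM) lay below T cells of control 2 (2582 CPM). Ifitm3 alone made up 59.1% of the members' UMIs in classical monocytes and 27.7% in mature neutrophils, but 5.22% in B cells and 4.37% in T cells. These are shares of 3′ UMI counts, which are not scaled by transcript length.

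**Figure D1:**
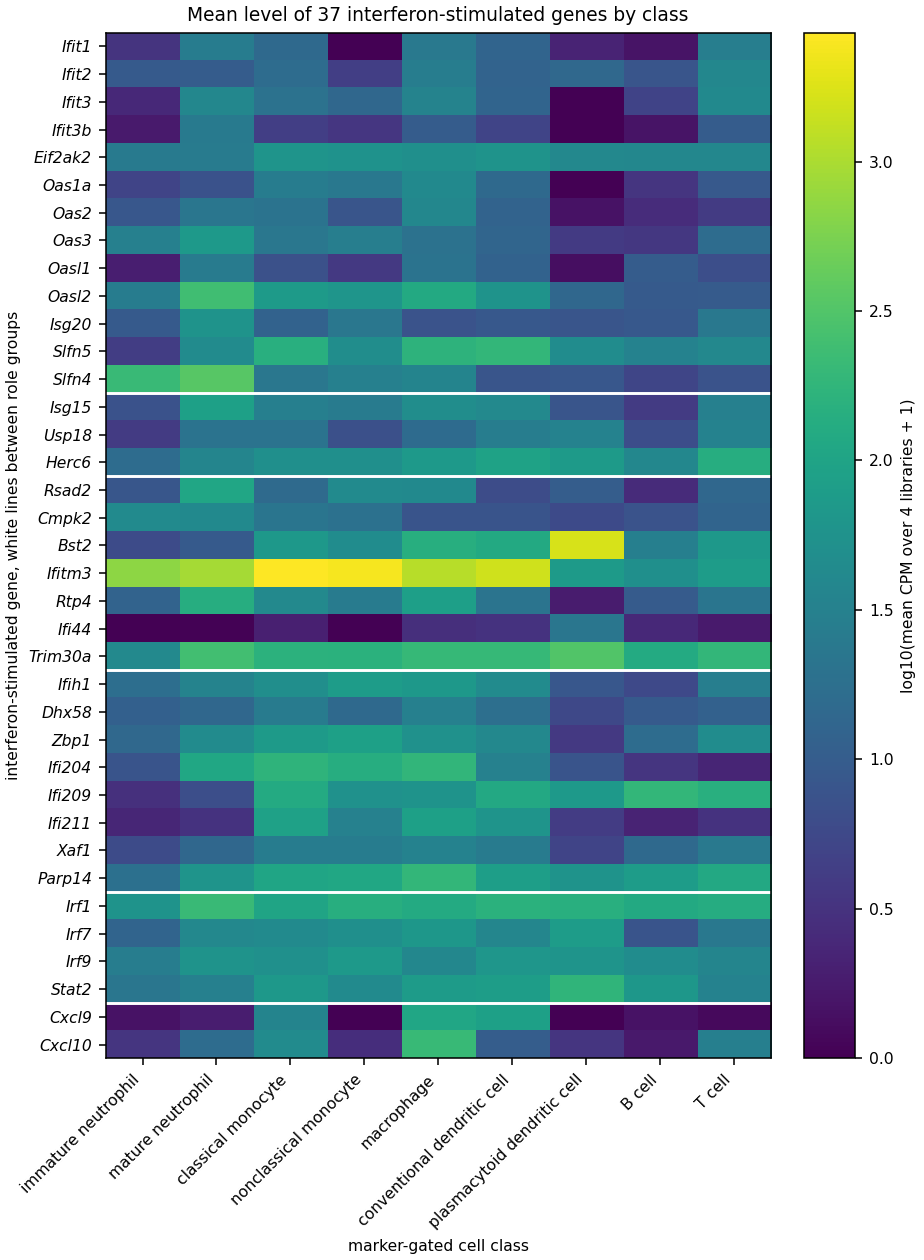
Mean level of each of the 37 genes in 9 marker-gated classes, coloured by log10 of the mean CPM over 4 libraries plus 1, with white lines between role groups. Ifitm3 is bright in all myeloid classes (2701 CPM in classical monocytes), Bst2 in plasmacytoid dendritic cells (1669 CPM) and Slfn4 in both neutrophil classes (346 and 214 CPM).

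Which class carried which genes was tested with edgeR's quasi-likelihood test on UMI sums per class and library, with the library as a block and Benjamini-Hochberg adjustment over 12882 genes. Of the 37 genes, 36 differed among the 6 classes, as did 94.6% of all genes, and Ifit2 did not (adjusted p = 0.104). Each class was then set against the mean of the other 5. Mature neutrophils had 26 members higher and 2 lower (all genes: 74.7% called, 38.5% higher and 36.2% lower), with a median log2 difference of 1.86. Classical monocytes had 18 higher and 3 lower (52.8% called, 29.9% and 22.9%; median 0.75), and conventional dendritic cells 11 higher and 3 lower (44.5% called, 24.1% and 20.3%; median 0.43), a higher share near that of all genes. The lymphoid and immature classes went the other way, with 5 higher and 17 lower in immature neutrophils (60.7% called, 32.6% and 28.1%; median −0.80), 6 and 13 in T cells (55.6% called, 29.4% and 26.3%; median −0.45), and 2 and 26 in B cells (57.2% called, 30.7% and 26.5%; median −1.82). In these 3 classes the share of members called higher lay below that of all genes.

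These splits depend on how classes of different RNA content are scaled. When total UMIs alone set the scale, the all-gene median was −0.98 in mature neutrophils, −0.65 in immature neutrophils and 0.53 in B cells, and the members' median in mature neutrophils was 0.91, which is still above that of all genes. The splits were then 18 higher and 6 lower in mature neutrophils, 22 and 0 in classical monocytes, 20 and 3 in conventional dendritic cells, 4 and 26 in immature neutrophils, 9 and 9 in T cells and 3 and 19 in B cells. No share of all genes called is given for these splits or for the left-out libraries below, so they lack that baseline. Single libraries also mattered. The T cell count of 6 higher became 2 without control 1, 2 without control 2, 3 without adenosine 1 and 10 without adenosine 2, and its 13 lower became 7 without adenosine 2. In conventional dendritic cells 7 were higher without control 2, in classical monocytes 0 were lower without adenosine 1 and 1 without adenosine 2, and in B cells 1 was higher without adenosine 2.

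**Figure D2:**
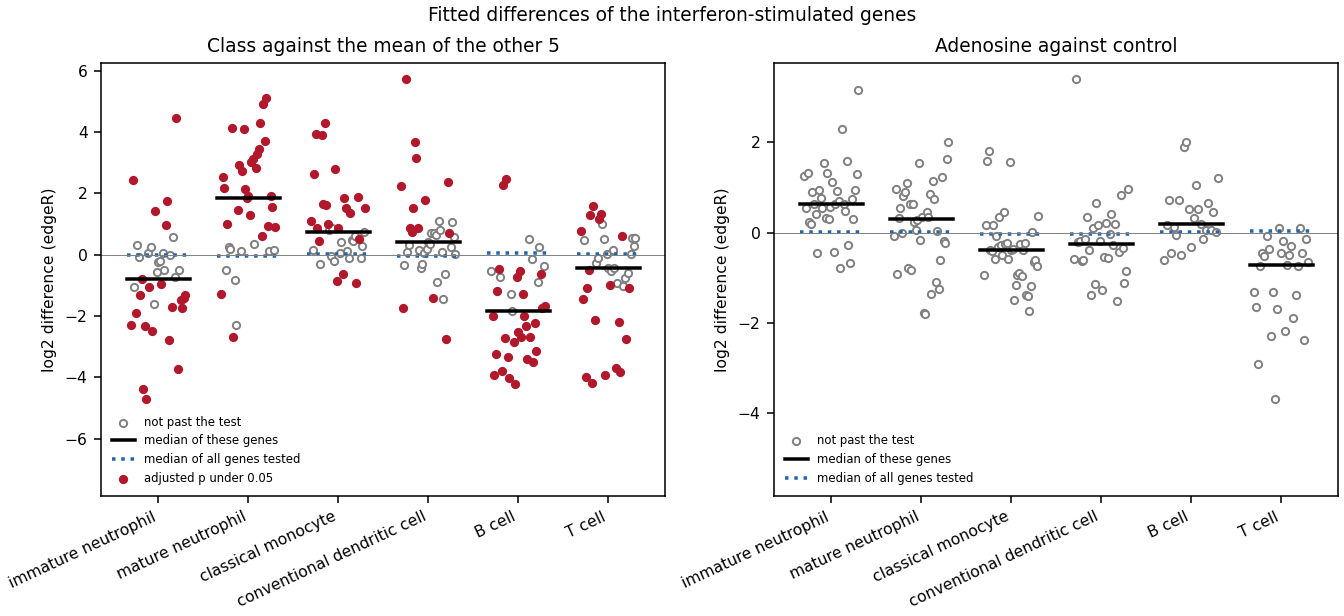
Log2 differences fitted by edgeR for each gene (points) by class, for a class against the mean of the other 5 (left) and for adenosine against control (right), with red points past an adjusted p of 0.05, black bars at the members' medians and dotted blue bars at the medians of all genes tested. Members sit highest in mature neutrophils on the left (median 1.86), and no point is red on the right.

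The largest role group, 13 genes whose products act on translation or on viral RNA, had more higher calls in mature neutrophils than in any of the other tested classes. In mature neutrophils 10 of the 13 were higher and 0 lower, against 5 and 2 in classical monocytes, 3 and 4 in immature neutrophils, 2 and 5 in T cells, 1 and 2 in conventional dendritic cells and 0 and 9 in B cells. Of all genes 38.5% were higher and 36.2% lower in mature neutrophils. In immature neutrophils 32.6% and 28.1% were, near the 3 and 4 of 13. The all-gene shares of each class given above apply to the other role groups too. Slfn4, a Schlafen family gene of myeloid cells, stood at 206, 752, 118 and 307 CPM in mature neutrophils, a log2 difference of 5.13 (SE 0.23; edgeR adjusted p = 3.72e-14). Its level in immature neutrophils was 219, 229, 208 and 199 CPM (log2 4.45, SE 0.24), nearly even across the 4 libraries. In B cells it did not pass 6.41 CPM in any library, so the neutrophil and B cell libraries did not overlap. Classical monocytes were called lower for Slfn4 at 14.5, 51.3, 8.78 and 13.0 CPM (log2 −0.94, SE 0.30), a call lost without control 1, adenosine 1 or adenosine 2 (−0.73, −0.78 and −0.84).

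Oasl2, related to the oligoadenylate synthetases, reached 131, 165, 43.4 and 611 CPM in mature neutrophils (log2 4.31, SE 0.30), with adenosine 2 highest and adenosine 1 lowest. Its B cell levels ran from 4.01 to 16.9 CPM and did not overlap with these. Oas3, which makes the oligoadenylates that activate RNase L, was higher in immature neutrophils as well, at 27.5, 18.0, 15.6 and 61.3 CPM (log2 1.76, SE 0.27). Adenosine 2 was again the highest library there. Oas2 (log2 2.83) and Oasl1 (3.47), which in mice restrains Irf7 production, were called higher in mature neutrophils too, whereas Oas1a was called higher in classical monocytes (1.86) and not in mature neutrophils (0.36). Slfn5, another Schlafen gene, had another distribution: conventional dendritic cells held 176, 229, 129 and 201 CPM (log2 2.37, SE 0.38) and immature neutrophils 2.91, 5.06, 1.62 and 3.10 CPM. No library of these classes overlapped. Its call as higher in mature neutrophils (log2 0.95, SE 0.41) turned to −0.0084 under scaling by library size alone and was lost without control 1, control 2 or adenosine 2 (0.93, 0.65 and 0.52).

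The Ifit genes, whose products bind viral RNA and block its translation, did not have one common class. Ifit3 stood at 8.24, 60.2, 1.72 and 82.7 CPM in mature neutrophils (log2 2.73, SE 0.47), where control 2 and adenosine 2 were high and the other libraries low. Its near copy Ifit3b followed the same order there, at 7.46, 41.1, 0.783 and 51.7 CPM (log2 4.09, SE 0.51). In T cells Ifit2 stood at 36.5, 73.1, 23.4 and 17.6 CPM (log2 1.34, SE 0.48), with the control libraries above the adenosine libraries, and the call was lost without control 1 (1.09) or control 2 (1.03). Ifit1 was called higher in mature neutrophils (log2 2.92, SE 0.32) and lower in B cells (−4.02, SE 0.70). Its calls in T cells (higher, 1.18, SE 0.46) and immature neutrophils (lower, −1.04, SE 0.44) were lost without several single libraries (0.55 in T cells without control 2, −0.74 in immature neutrophils without control 2), and the latter was 0.073 once 9 classes were fitted. Eif2ak2, the kinase PKR that halts translation on double-stranded RNA, was found in every tested class, with mean levels between 24.2 CPM in immature neutrophils and 59.2 CPM in classical monocytes.

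Of the 3 genes of the ubiquitin-like modifier system, Isg15 encodes the modifier, Herc6 the ligase that attaches it in mice, and Usp18 the protease that removes it. Isg15 in mature neutrophils was 14.5, 257, 7.52 and 75.7 CPM (log2 3.04, SE 0.31), and mature neutrophils were its highest class in 4 of 4 libraries. Control 2 exceeded control 1 by 17.7-fold there, so the spread within a group was wide. Herc6 was instead highest in T cells in 4 of 4 libraries, at 118, 207, 125 and 94.6 CPM (log2 1.31, SE 0.30), and its difference in mature neutrophils (0.18, not called) turned to −0.77 under scaling by library size alone. Usp18 was called higher in mature neutrophils (1.55, SE 0.38). All 3 genes were called lower in immature neutrophils and 2 of 3 in B cells.

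The 7 genes that restrict virus entry, replication or release split between myeloid classes: 5 were higher and 1 lower in mature neutrophils, 3 and 0 in classical monocytes, 3 and 1 in conventional dendritic cells, 2 and 3 in immature neutrophils, 1 and 5 in B cells and 1 and 2 in T cells. Ifitm3, which blocks fusion of viruses in endosomes, was higher in classical monocytes than in the other 5 tested classes in 4 of 4 libraries, at 2883, 3471, 1005 and 3443 CPM (log2 2.79, SE 0.20; edgeR adjusted p = 3.83e-10). Nonclassical monocytes, 16 to 70 cells a library and outside that test, held 2214, 2935, 1138 and 3526 CPM of Ifitm3, more than the classical ones in both adenosine libraries. In B cells it stood at 62.1, 57.7, 18.7 and 63.1 CPM (log2 −4.22, SE 0.33) and in T cells at 54.2, 191, 15.9 and 48.7 CPM (log2 −3.93, SE 0.33). The lymphoid and monocyte libraries did not overlap. Rsad2, the antiviral enzyme viperin, was the only gene restricted to one of the 6 tested classes by the rule used here (the highest class in every library, at least 4-fold over the next by mean CPM). It stood at 51.9, 237, 17.2 and 123 CPM in mature neutrophils (log2 4.92, SE 0.37), 7.35-fold over classical monocytes. Classical monocytes held 18.0, 23.6, 2.07 and 14.7 CPM, which were below the mature neutrophils of the same library in every case. Outside the tested classes, erythroid cells held Rsad2 at 140.4 CPM in control 1 (31 UMIs), 23.7 CPM in adenosine 1 (43 UMIs) and 3.68 CPM in adenosine 2 (1 UMI), the first 2 above the mature neutrophils of those libraries. Rtp4, a chaperone of receptor transport with antiviral activity, was likewise highest in mature neutrophils in 4 of 4 libraries, at 68.3, 195, 10.2 and 266 CPM (log2 3.71, SE 0.29).

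Cmpk2, a mitochondrial nucleotide kinase, is the neighbour of Rsad2 on chromosome 12 (the pair spans chr12:26442746-26479837), and its distribution differed. Immature neutrophils held 40.2, 25.3, 45.0 and 59.1 CPM (log2 2.45, SE 0.23), close to the mature neutrophils with 34.3, 21.4, 25.8 and 82.3 CPM (log2 2.55, SE 0.23). In both classes control 2, the highest library for Rsad2 in mature neutrophils, was the lowest. Bst2, the tether that holds budding virions at the cell surface, was high in conventional dendritic cells at 135, 146, 63.0 and 139 CPM (log2 2.25, SE 0.26) and low in both neutrophil classes (log2 −2.28 and −1.29). Trim30a, a tripartite-motif gene, was found throughout: its means in the tested classes ran from 40.0 CPM in immature neutrophils to 243 CPM in mature neutrophils. It was called lower in immature neutrophils at 36.4, 33.2, 30.5 and 60.01 CPM (log2 −1.47, SE 0.21) and in B cells at 128, 113, 139.7 and 116 CPM (log2 −0.61, SE 0.21), the latter lost without control 1 (−0.64) or control 2 (−0.52). Ifi44 had 0 UMIs in 40480575 UMIs of immature neutrophils, which allows at most 0.0741 CPM by counting error, so its fitted fold there carries no size; the class median of −0.80 was the same with the gene at that bound.

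Among the 8 sensors and related effectors, classical monocytes had 6 higher and 0 lower, mature neutrophils 5 and 1, conventional dendritic cells 4 and 0, T cells 2 and 3, B cells 1 and 5, and immature neutrophils 0 and 6. Ifi204, a nuclear DNA-binding protein of the interferon-inducible family on chromosome 1, stood at 153, 249.4, 54.6 and 228 CPM in classical monocytes (log2 3.91, SE 0.21). In mature neutrophils it stood at 53.0, 101, 29.3 and 261 CPM (log2 4.13, SE 0.20), and in T cells no library passed 3.18 CPM. Its relatives next to it behaved differently from one another. Ifi211 was high in classical monocytes at 75.8, 124, 18.6 and 149 CPM (log2 4.30, SE 0.25) and in conventional dendritic cells at 38.7, 59.9, 37.8 and 99.0 CPM (log2 3.68, SE 0.29), and at most 3.83 CPM in mature neutrophils. Ifih1 (the RNA sensor MDA5) and Dhx58 (its relative LGP2) were called higher in classical monocytes (0.99 and 0.89) and mature neutrophils (1.47 and 1.00), the latter not under scaling by library size alone (0.53 and 0.06). Xaf1, linked to cell death, was called lower in immature neutrophils (−1.42), and its mature neutrophil value of 0.15 was −0.66 without adenosine 2 and −0.78 by library size alone.

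Ifi209 was the one gene of the list highest in B cells, at 188, 195, 168 and 204 CPM (log2 2.29, SE 0.20), a narrow spread. T cells followed with 71.1, 239.5, 83.4 and 182 CPM (log2 1.60, SE 0.22), while mature neutrophils held at most 13.3 CPM and immature neutrophils at most 3.10 CPM. All B cell libraries lay above all neutrophil libraries. These 3 genes lie between positions 173630917 and 173913046 of chromosome 1, and copies make the assignment of their reads uncertain: over the last 500 bases, 77.4% of the 50-base words of Ifi211 also occur in Ifi205 and 47.8% of those of Ifi209 in Ifi214. The same holds for Oas1a with Oas1g (56.1%), Herc6 with Gm45193 (24.5%), Trim30a with Trim30d (19.9%) and Ifit3 with Ifit3b (14.9%). Zbp1, a sensor of Z-form nucleic acids that can trigger cell death, was called higher in classical monocytes at 47.2, 76.0, 19.0 and 148 CPM (log2 1.53, SE 0.32); its call in mature neutrophils (0.92) was lost without control 2 (0.84) and turned to −0.030 under scaling by library size alone. Parp14, an ADP-ribosyltransferase, was called higher in T cells (0.63) and in mature neutrophils (0.62). The first call was lost without control 1, control 2 or adenosine 1 (0.51, 0.59 and 0.46), the second without control 2 or adenosine 2 (0.46 and 0.40), and the second was −0.33 under that scaling.

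Of the 4 transcription factors, Irf1, Irf9 and Stat2 reached a mean of 20 CPM in every tested class, as did Eif2ak2, Ifitm3 and Trim30a. Irf1, which is itself induced by interferon gamma, stood at 143.9, 72.5, 144.4 and 474 CPM in mature neutrophils (log2 1.86, SE 0.20), at 59.1, 39.03, 41.9 and 257 CPM in classical monocytes (−0.84, SE 0.24), and at 42.9, 65.9, 48.8 and 331 CPM in B cells (−0.71, SE 0.26). The monocyte call was lost without adenosine 1 (−0.73) and the B cell call without control 1 (−0.52) or adenosine 1 (−0.61). Adenosine 2 was the highest library in all 6 classes. In T cells the 4 libraries were closer, at 121, 146, 103 and 167 CPM. The levels in conventional dendritic cells were 121, 107, 85.1 and 299.6 CPM. Irf7, the factor that amplifies type I interferon production, stood at 19.1, 61.9, 13.6 and 61.4 CPM in mature neutrophils (1.91, SE 0.22), at 38.2, 56.4, 9.36 and 66.8 CPM in classical monocytes (0.86, SE 0.23; 0.46 and not called in the fit of 9 classes), and at 0.913, 8.24, 2.67 and 14.8 CPM in B cells (−2.53, SE 0.36). Control 2 and adenosine 2 were its 2 highest libraries in each of these classes.

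Irf9 and Stat2 are parts of the ISRE-binding complex. Irf9 stood at 53.1, 45.6, 28.0 and 98.9 CPM in mature neutrophils (1.30, SE 0.18) and at 26.2, 52.8, 26.2 and 34.5 CPM in T cells (−0.98, SE 0.24), and the 2 classes overlapped. Neither call held under scaling by library size alone (0.36 and −0.53). Stat2 stood at 51.1, 57.9, 96.6 and 115 CPM in conventional dendritic cells (0.71, SE 0.21; lost without adenosine 1, 0.53) and at 24.3, 40.6, 30.9 and 32.2 CPM in T cells (−1.08, SE 0.26), without overlap. In mature neutrophils Stat2 was 17.7, 17.9, 16.1 and 67.9 CPM and was not called (0.13); under scaling by library size alone the value was −0.81 and called lower.

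The chemokines Cxcl9 and Cxcl10, ligands of Cxcr3 that attract activated T cells, were unevenly spread, each with at least 10 UMIs in 5 of the 6 tested classes. Cxcl9 stood at 28.0, 0.966, 8.40 and 317 CPM in conventional dendritic cells (log2 5.73, SE 0.49) and at 31.3, 0, 0 and 106 CPM in classical monocytes (3.93, SE 0.44; 2.67 and not called in DESeq2). Adenosine 2 was highest in both classes and control 1 followed. Cxcl10 stood at 27.7, 15.8, 8.94 and 123 CPM in classical monocytes (2.63, SE 0.59) and at 7.85, 30.5, 11.4 and 10.9 CPM in mature neutrophils (2.18, SE 0.62; 1.21 and not called by library size alone). In T cells it stood at 1.87, 101, 9.37 and 3.67 CPM, high only in the library with 38 T cells. In conventional dendritic cells Cxcl10 was not called (−0.33), and with classes taken from Leiden clusters its value was 2.16 and called higher.

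A further 3 classes with 10 to 19 cells in some library were added in a second fit of 9 classes over 11117 genes, a choice made after the counts were seen, in which 36 members were tested. Macrophages (267 cells, 18 of them in adenosine 2) had 22 members higher and 1 lower (all genes: 22.4% and 13.3%; median log2 1.30). None of the 28 Leiden clusters was named macrophage, so the class rests on the marker gate alone. Their Cxcl10 was 0, 197, 46.7 and 584 CPM, the highest mean of the 9 classes. Their Cxcl9 was 0, 0, 0 and 428 CPM, all 82 UMIs coming from adenosine 2. Oas1a was called higher in them as well, at 45.5, 43.3, 28.0 and 46.9 CPM (log2 3.30, SE 0.58).

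Plasmacytoid dendritic cells (181 cells, 16 in control 2), known as strong producers of type I interferon, had 4 members higher and 19 lower (all genes: 24.9% and 19.1%; median −1.69). Higher were Bst2, a known surface marker of this cell type, at 1131, 3303, 762 and 1480.2 CPM (log2 5.07, SE 0.19), Stat2 at 201, 136, 139 and 213 CPM (1.59, SE 0.20), Irf7 at 52.7, 163, 16.5 and 77.6 CPM (1.00, SE 0.28) and Trim30a at 384, 258, 213 and 413 CPM (0.78, SE 0.18). In contrast Ifit3, Ifit3b, Oas1a and Cxcl9 had 0 UMIs in the class, which allows at most 1.51 CPM by counting error. Nonclassical monocytes (155 cells) had 5 members higher and 0 lower (11.6% and 7.11%): Ifi204, Ifitm3, Ifi211, Zbp1 and Ifih1.

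Across the 37 genes, mature neutrophils were the highest tested class by mean CPM for 12, classical monocytes for 11, conventional dendritic cells and T cells for 6 each, and B cells (Ifi209) and immature neutrophils (Cmpk2) for 1 each. Of the 6 T cell genes, T cells led in 4 libraries for Herc6 and in 3 for Ifit2 and Parp14. They led in only 2 libraries for Ifit1 and Ifit3 and in 1 for Usp18. For 9 genes the highest class was the same in all 4 libraries: 6 in mature neutrophils, 2 in classical monocytes (Ifitm3 and Dhx58) and 1 in T cells (Herc6). The 6 genes with at least 20 CPM in every tested class and the restricted Rsad2 leave 30 genes that were neither.

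The 2 libraries of a group differed widely from each other, and the libraries kept a like order in several classes. Among members with at least 10 UMIs in a class, adenosine 1 was the lowest library for 31 of 36 genes in mature neutrophils, 34 of 37 in classical monocytes and 26 of 36 in immature neutrophils. It was lowest for 23 of 36 in conventional dendritic cells, but for 13 of 32 in B cells and 12 of 36 in T cells. In macrophages control 1 was lowest for 22 of 36 and adenosine 1 for 8. The order of libraries was not counted over all genes. The highest library was adenosine 2 for 25 and control 2 for 11 of 36 genes in mature neutrophils, and 23 and 12 of 37 in classical monocytes. In T cells control 2 was highest for 28 of 36 and in conventional dendritic cells for 21 of 36, and in B cells adenosine 2 for 23 of 32. A pair of genes, Isg20 and Slfn5, were highest in control 2 in every tested class with at least 10 UMIs, and 3 genes, Irf1, Cxcl9 and Ifi44, were highest in adenosine 2 in every class where they had 10 UMIs.

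**Figure D3:**
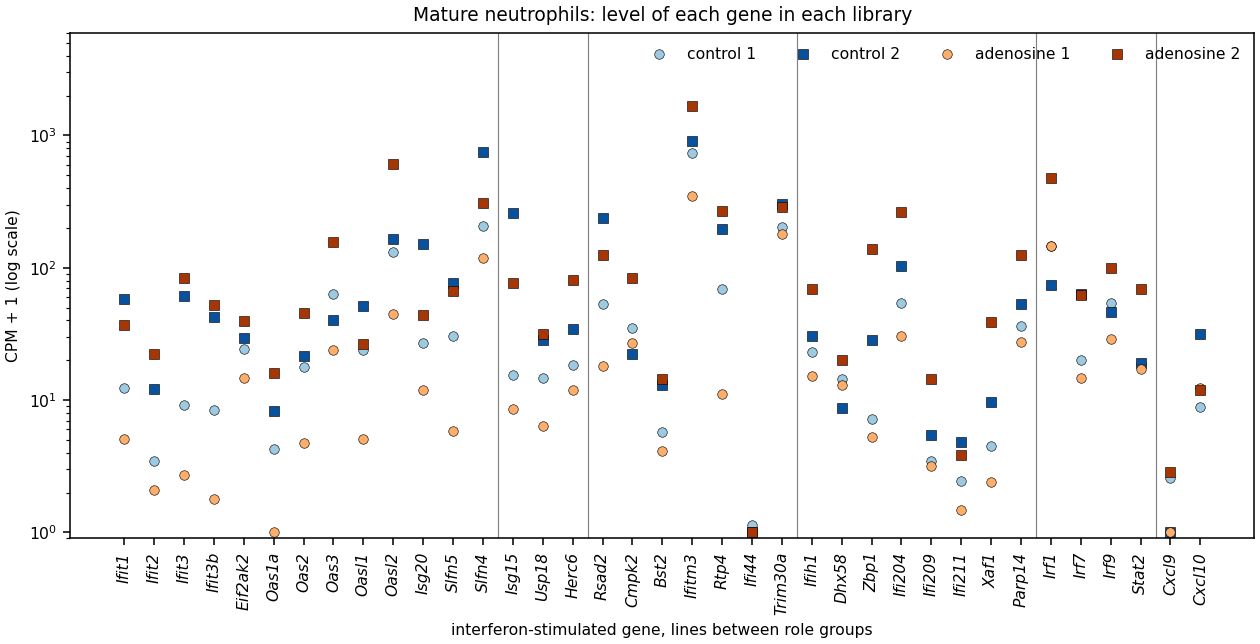
Level of each gene in mature neutrophils of each library, as CPM plus 1 on a log scale, with lines between role groups. Adenosine 1 is lowest for 31 of 36 genes with at least 10 UMIs, while control 2 leads for Isg15 (257 CPM) and adenosine 2 for Irf1 (474 CPM) and Zbp1 (136 CPM).

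The 2 high libraries differed in which genes stood highest. In mature neutrophils, Isg15, the exonuclease gene Isg20, Slfn4, Cxcl10, Oasl1 and Rsad2 were 3.39, 3.52, 2.45, 2.81, 1.96 and 1.93 times as high in control 2 as in adenosine 2. Irf1, Zbp1, Xaf1, Oas3 and Stat2 stood at 0.153, 0.201, 0.229, 0.249 and 0.264 of their adenosine 2 level in control 2. These genes were named after their ratios were seen, and 1 library on each side gives no replicate check. Zbp1 stood at 6.15, 27.4, 4.23 and 136 CPM, 32.3-fold higher in adenosine 2 than in adenosine 1. The mature neutrophil marker list summed to 44303, 18330.2, 47868 and 43904 CPM in these cells, and the immature list to 7557, 1657, 6990.0 and 6990.2 CPM, both lowest in control 2. Their part in the differences was not tested.

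**Figure D4:**
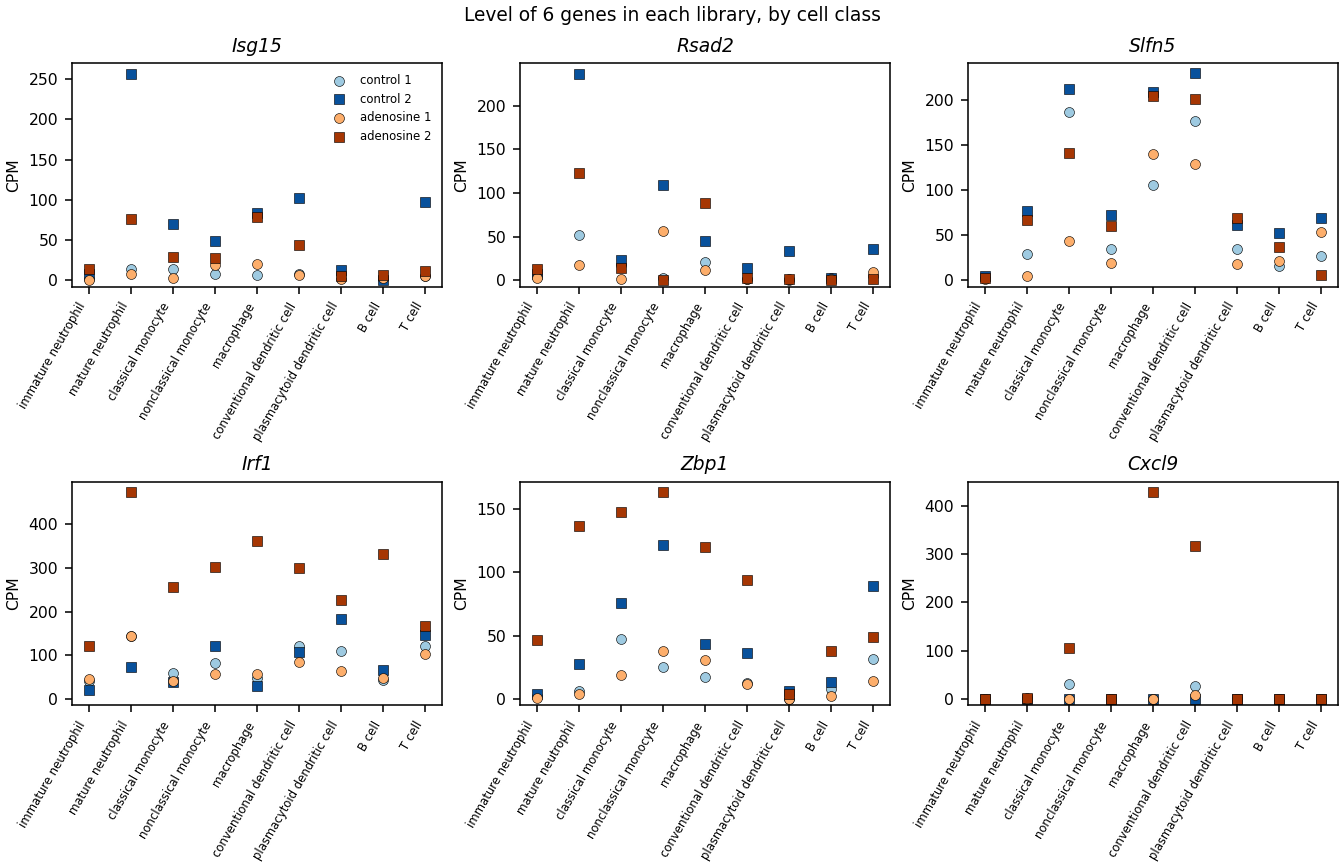
Level of Isg15, Rsad2, Slfn5, Irf1, Zbp1 and Cxcl9 in each library (points) by class, in CPM. Isg15 and Rsad2 are highest in control 2 mature neutrophils (257 and 237 CPM), and Irf1 in adenosine 2 in every class shown.

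The UMIs of these genes were spread over the cells differently in the 2 high libraries. Each cell was thinned to 1000 UMIs, which left out 113, 36, 107 and 51 mature neutrophils, and a cell was counted when at least 5 of the 37 genes were detected. Of mature neutrophils, 5.87%, 12.6%, 1.54% and 30.4% were so counted (exact Clopper-Pearson 95% intervals 5.07 to 6.76, 11.6 to 13.6, 1.10 to 2.08 and 28.4 to 32.4, covering counting error only). In classical monocytes the shares were 13.2%, 16.4%, 2.14% and 22.8%. B cells had 0.272%, 1.28%, 0.313% and 2.04%. Adenosine 2 had the highest share in these 3 classes and adenosine 1 the lowest or next to lowest. Adenosine 2 also led in immature neutrophils, at 5.14%. Control 2 led in conventional dendritic cells (15.1% against 13.5% in adenosine 2) and in T cells (5.26% against 1.63%). Without thinning, mature neutrophil shares were 17.7%, 31.7%, 4.39% and 62.8% at median depths of 2245, 2687, 2182.5 and 2176 UMIs.

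The 10% of mature neutrophils richest in these genes held 39.1%, 52.4%, 43.8% and 28.6% of the genes' UMIs. This share was largest in control 2 and smallest in adenosine 2. The thinned cells had 1.65, 2.31, 0.930 and 3.78 of the genes detected on average. The part of these differing counts per cell in the shares was not tested. Within control 2, 31 cells of cluster 8 carried 24546 CPM of these genes, with Ifit3 at 2021 CPM, against 3659 and 4146 CPM in its 2 main clusters. Cluster 8 of adenosine 2, with 1241 cells, carried 6746 CPM and Ifit3 at 119 CPM. In T cells the richest 10% held 40.2%, 52.7%, 36.4% and 35.1%.

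**Figure D5:**
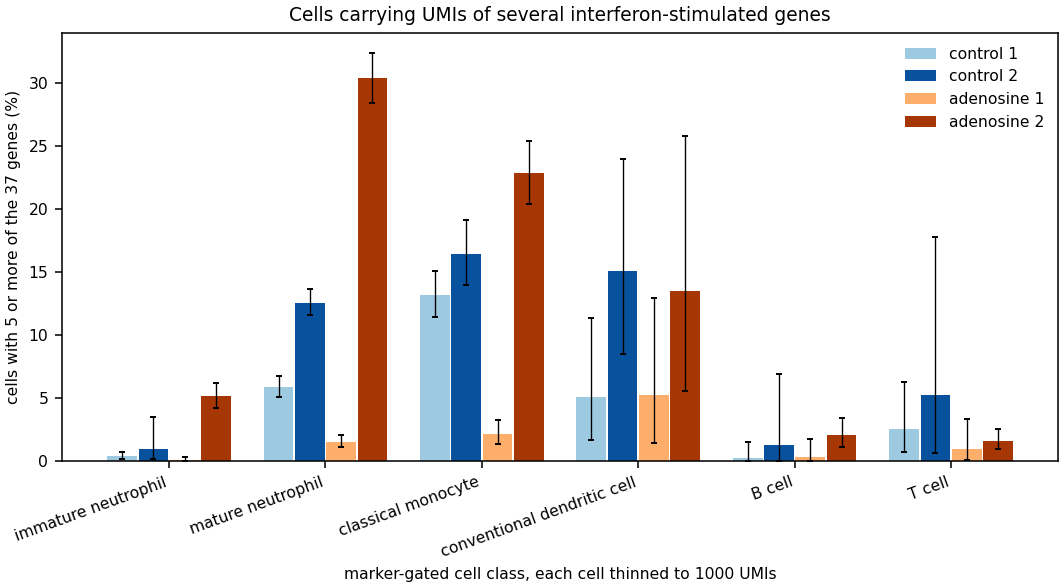
Share of cells with at least 5 of the 37 genes detected after thinning each cell to 1000 UMIs, by class and library, with exact 95% Clopper-Pearson intervals as error bars. Mature neutrophils of adenosine 2 reach 30.4% and those of adenosine 1 1.54%, while B cells stay at or below 2.04%.

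The upstream genes were described from lists chosen beside the members. Of 10 interferon genes, Ifna1, Ifna2, Ifna4, Ifna5, Ifne, Ifnl2 and Ifnl3 had 0 UMIs over all cells kept, Ifnb1 had 2 and Ifnk 27. Ifng, the gene of interferon gamma, had 1142 UMIs, 1093 of them in T cells at 16.8, 0, 15.9 and 86.2 CPM, and natural killer cells, 33, 6, 59 and 36 of them, held 24.4, 44.9, 18.7 and 23.5 CPM. T cells of control 2 had no Ifng UMI among 246321, which allows up to 12.2 CPM. Adenosine 2 thus combined the highest Ifng level per T cell UMI with 1172 of the 1584 T cells; 770 of the 772 cells of T cell cluster 13 and 295 of the 312 of cluster 17 came from it. No relation between Ifng and the members was tested.

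Of the 6 receptor genes, mature neutrophils had 5 higher and 0 lower (all genes 38.5% and 36.2%), and B cells 0 and 5 (30.7% and 26.5%). Ifnar1 stood at 56.5, 82.0, 62.6 and 58.9 CPM in mature neutrophils (log2 1.12, SE 0.15) and at 21.4, 19.7, 23.9 and 17.1 CPM in immature neutrophils (−1.13, SE 0.18), without overlap. Ifnlr1, the specific chain of the interferon lambda receptor, was a neutrophil gene here, at 68.2, 18.3, 85.3 and 82.5 CPM in mature (4.84, SE 0.21) and 98.9, 56.7, 99.0 and 80.2 CPM in immature neutrophils (5.16, SE 0.21), and no library of the other 4 classes passed 5.48 CPM. Ifngr2, needed for the response to interferon gamma, was lowest in T cells at 14.02, 20.3, 3.75 and 1.79 CPM (−4.74, SE 0.39), whereas Ifngr1 was high there (1.33, SE 0.18). Among 14 genes of the Jak and Stat pathway and its regulators, mature neutrophils had 9 higher and 3 lower, and among 55 other interferon-induced genes 27 and 16, beside the same 38.5% and 36.2% of all genes.

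Whether adenosine changed these genes was tested within each class, 2 libraries against 2. By edgeR's quasi-likelihood test no member passed an adjusted p of 0.05 in any class, and 0% of all genes did. At an unadjusted p under 0.05 there were 5 of 27 members in T cells (all genes 2.32%), 3 of 34 in immature neutrophils (1.61%), 1 of 23 in B cells (3.48%), 1 of 30 in conventional dendritic cells (1.83%), 0 of 37 in classical monocytes (1.92%) and 0 of 36 in mature neutrophils (3.26%). DESeq2 called 1 member, Ifit3 in T cells, among 8 genes there (0.0905% of all), and no member among the 34 genes it called in mature neutrophils, 7 in classical monocytes, 4 in immature neutrophils, 3 in B cells and 0 in conventional dendritic cells. The members' median log2 differences were 0.65 in immature neutrophils, 0.30 in mature neutrophils, 0.20 in B cells, −0.25 in conventional dendritic cells, −0.38 in classical monocytes and −0.71 in T cells. In data simulated for mature neutrophils at the measured spread (a biological coefficient of variation of 0.414), 25% of genes changed 4-fold and 0% of those changed 2-fold were recovered, so 2-fold changes were not detectable by this test.

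Irf1 had the lowest unadjusted p of the members in both neutrophil classes and in B cells. Its fitted difference was 1.53 in mature neutrophils (SE 0.69; edgeR adjusted p = 0.889), 1.33 in immature neutrophils (SE 0.51), 1.57 in classical monocytes (SE 0.88) and 1.90 in B cells (SE 0.73; edgeR adjusted p = 0.999). In immature neutrophils its levels were 41.5, 21.9, 45.3 and 122 CPM, with both adenosine libraries above both controls. In mature neutrophils both adenosine libraries lay above both controls for Irf1 alone (1 of 36 members; all genes 14.9% higher and 15.5% lower), and adenosine 1 exceeded control 1 by less than 1 CPM. Stat2 followed in mature neutrophils (1.23, SE 0.73), immature neutrophils (0.74, SE 0.33; 18.2, 12.4, 23.6 and 32.1 CPM) and B cells (0.65, SE 0.36; 43.8, 60.4, 68.8 and 88.4 CPM). Isg20 in mature neutrophils was 25.8, 151, 11.0 and 42.9 CPM (−1.80, SE 1.06), overlapping between the groups. The 2 control libraries differed more than the group means did.

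In immature neutrophils 6 of 34 members had both adenosine libraries above both controls and 1 both below (all genes 14% and 5.84%). Cxcl10 was among the higher ones, with 1.09, 1.69, 3.81 and 2.78 CPM (1.33, SE 0.54). Here 29 of 34 fitted differences of members were positive, and signs over all genes were not counted. The count of called members was 10 of 36 without adenosine 1 (all genes 0.746%) and 5 of 36 without control 2 (0.506%), which holds only 206 of these cells. All 5 of the latter, Isg15, Oasl2, Rtp4, Xaf1 and Zbp1, were among the 10. Zbp1 stood at 2.47, 3.93, 1.21 and 46.7 CPM, high in adenosine 2 alone. The marker list of granulocyte-monocyte progenitors summed to 343, 222, 487 and 520 CPM in these cells, higher in both adenosine libraries, and that of mature neutrophils to 9308, 11951, 8282 and 7886 CPM, lower in both. No marker of either list was at 0 in any library, and their part in the differences was not tested.

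In T cells 12 of 27 members had both adenosine libraries below both controls and 0 above (all genes 11.1% and 10.7%). Of the members' fitted differences 25 of 27 were negative, and signs over all genes were not counted. Ifit3 stood at 12.2, 142, 6.56 and 4.402 CPM from 13, 35, 7 and 54 UMIs (edgeR −3.70, SE 1.03, adjusted p = 1.00; DESeq2 −3.80, adjusted p = 0.0447). Usp18 stood at 19.6, 89.3, 15.9 and 5.14 CPM (−2.38, SE 0.83) and Ifit1 at 11.2, 85.3, 10.3 and 7.09 CPM (−2.28, SE 0.88). All 3 were highest in control 2, whose 38 T cells had 246321 UMIs. Called members numbered 0 of 30 without control 2 (all genes 0.0104%), 2 of 29 without control 1 (0.114%), 5 of 32 without adenosine 1 (5.2%) and 2 of 31 without adenosine 2 (0.203%). Marker lists of other classes in these T cells summed to 685, 73.1, 455 and 488 CPM for immature neutrophils, 830.2, 276, 328 and 264 CPM for mature neutrophils and 1100.4, 1908, 915 and 2170 CPM for classical monocytes (a list that includes Ly6c2, which T cells also express). The neutrophil lists were thus lowest or near lowest in control 2. Lists lower in both adenosine libraries included that of conventional dendritic cells, at 307, 272, 98.4 and 117 CPM. Of its 8 markers, 4, 4, 3 and 1 were at 0. Lists higher in both included those of nonclassical monocytes (566, 443, 629 and 693 CPM) and plasmacytoid dendritic cells (424, 227, 463 and 733 CPM). The natural killer cell list summed to 734, 759, 482 and 2135 CPM, highest in adenosine 2, and 758 and 295 of the 1172 T cells of adenosine 2 lay in clusters 13 and 17, against 5, 1 and 13 T cells of the other libraries in both clusters together. The part of these lists and clusters in the differences was not tested.

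Classical monocytes had 0 of 37 members with both adenosine libraries higher and 5 lower (all genes 16.7% and 8.83%). Slfn4 differed by −1.74 (SE 0.72) at the levels given above, with control 2 far above the other libraries, and without control 1 it was the 1 member of 37 called (all genes 5.11%). Slfn5 stood at 187, 212, 43.5 and 141 CPM (−1.19, SE 0.63), with both adenosine libraries below both controls. In these monocytes the macrophage marker list summed to 1536, 4023, 1252 and 986 CPM, lower in both adenosine libraries. The mature neutrophil list, at 1810, 1692, 1425 and 1259 CPM, was lower in both as well. Higher in both were the immature neutrophil list (1356, 436, 2638 and 1417 CPM) and that of granulocyte-monocyte progenitors (451, 106, 689 and 483 CPM). No marker of these lists was at 0 in any library. Of the 831 classical monocytes of control 2, 643 lay in cluster 10, and of the 1132 of adenosine 2, 629 lay in cluster 12, whereas cluster 6 held 846 of 1387 in control 1 and 557 of 939 in adenosine 1. The part of these lists and clusters in the members' differences was not tested. In conventional dendritic cells 2 of 30 were higher and 2 lower (17.1% and 9.08%). Usp18 stood at 34.6, 37.7, 16.8 and 19.5 CPM there (−1.11, SE 0.42), also without overlap, whereas Cxcl9 (3.40, SE 1.5) and Stat2 (0.83, SE 0.36) had positive differences from the levels given above. In B cells 2 of 23 were higher and 1 lower (14% and 16%), Irf7 differed by 2.01 (SE 1.14) with overlap between the groups, and Irf1 was the 1 member of 29 called without adenosine 1 (all genes 0.252%). Without control 1, mature neutrophils had 2 called members of 35 (all genes 19.1%), Cxcl10 and Isg20, both with negative differences.

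Whether the adenosine difference itself differed between mature neutrophils and the pooled classical monocytes and macrophages was tested as an interaction. No gene of 12083 and no member passed an adjusted p of 0.05 in edgeR or DESeq2. The difference of the log2 changes was positive, higher in mature neutrophils, for 31 of 36 members, with a median of 0.55. Signs over all genes were not counted here either. Oasl2 (1.09, SE 0.37), Stat2 (0.95) and Oas3 (0.92, SE 0.32) had an unadjusted p under 0.05, 3 of 36 members against 3.92% of all genes. Without control 1 there were 4 called members of 35 (all genes 15.9%), Oas3, Oasl2, Dhx58 and Isg20, the last with a negative difference.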

How the data were processed

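Single-cell RNA was measured in 4 libraries (2 control, 2 adenosine; labels give the groups). The deposited files give whole-number UMI counts by gene and barcode, not normalized; the authors used Cell Ranger 7.0.0, bcl2fastq and build mm10, per the submitters' processing notes, and no annotation release or intron setting is stated there. Counts were used as deposited (32277757 to 68117846 UMIs a library in 35274 barcodes, the lowest with 500). Barcodes under 200 genes or with 10% or more mitochondrial UMIs (1576) were removed, then the 2368 highest Scrublet scores (0.8% per 1000 barcodes, since the automatic threshold marked 0% to 1.95%; scanpy 1.11.5, Python 3.11.15). Each cell took the class of its best marker list: score at least 0.3, 3 markers detected, 0.05 above the next list; 2199 cells stayed unassigned. Nonclassical monocytes without a Csf1r UMI were left unassigned, a condition set after the data were seen. UMIs were summed per class and library (at least 20 cells in each) and tested with edgeR 4.0.16 (R 4.3.3; filterByExpr, TMM, quasi-likelihood, Benjamini-Hochberg over all genes). Library was a block between classes; adenosine was tested per class without a block. Counts with 200 changed genes were simulated for mature neutrophils against the other classes, at 1 common spread (0.242). There 97% of 2-fold and 100% of 4-fold differences were recovered. The changed genes were drawn from the better expressed ones, and differences of the smaller classes were not simulated. DESeq2 1.42.0, other scalings, filters, Leiden clusters (resolution 1, 28 clusters) and left-out libraries were alternatives. Named genes were, per class, the 4 called members of largest difference with a mean of at least 20 CPM; per adenosine comparison, the 3 of lowest p; the transcription factors and the chemokines; other examples were chosen after their values were seen. Of the pathway genes that this rule named, 1 is not reported here. The members and lists were chosen with earlier results of these data known. Gene positions are from GENCODE for GRCm38, promoters from RefSeq.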

Additional observations from a re-analysis of the deposited data

Results flagged for a closer look

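Ifit2, Cmpk2 and Oasl1 moved in opposite directions in 2 classes: in 1 class both adenosine libraries lay above both controls and in the other both lay below. Of 11967 genes, 15.9% had such a pair of classes. The gap between the fitted adenosine differences was 2.05 for Ifit2 in B cells (0.73) against T cells (−1.32), 1.87 for Ifit2 in immature neutrophils (0.55) against T cells, 2.20 for Cmpk2 in immature neutrophils (0.56) against T cells (−1.64), and 1.39 for Oasl1 in conventional dendritic cells (0.42) against classical monocytes (−0.97), all on the log2 scale. The difference between the classes was not tested in these cases.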

How the results depend on the processing

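In T and B cells of control 2, with 246321 and 364109 UMIs, 3 UMIs stood for 12.2 and 8.24 CPM. Replicate block: taking the replicate number as a block gave 0 called members in all 6 classes. Same-numbered libraries did not deviate together in every class (correlations −0.0475 to 0.244). The correlation was highest in immature neutrophils (0.244), T cells (0.235) and B cells (0.175), and whether the numbers mark a pairing was not determined. Called adenosine members without the low-count filter numbered 4 in immature neutrophils, 3 in mature neutrophils, 2 in conventional dendritic cells, 1 in B cells and 2 in T cells, and DESeq2 called 1 in T cells. No share of all genes is given beside the counts without the filter or the class counts that follow. Those counts therefore lack that baseline. Class counts moved past 1.5 times as follows: by library size alone, lower 26 in immature neutrophils, 6 in mature neutrophils and 0 in classical monocytes, and higher 20 in conventional dendritic cells; Leiden clusters, higher 19 in conventional dendritic cells; lower in conventional dendritic cells, 5 without the filter, 5 with doublets kept and 5 with 50 cells required; higher in B cells, 1 with DESeq2; with 10 cells required (chosen after seeing the data), lower 1 in classical monocytes and higher 1 in B cells. Values called in at least 1 of both fits that changed sign were, by library size alone, Isg20 −0.59 in immature neutrophils, Eif2ak2 −0.69, Herc6 −0.77, Parp14 −0.33, Slfn5 −0.0084, Stat2 −0.81 and Zbp1 −0.030 in mature neutrophils and Eif2ak2 0.0095 in B cells; with 10 cells, Ifit1 0.073 in immature neutrophils and Bst2 −0.25 in T cells; with 50 cells, Ifi204 −0.029 in conventional dendritic cells; with clusters, Cxcl10 2.16 in conventional dendritic cells; and Xaf1 in mature neutrophils, −0.66 without adenosine 2 (−0.66 to 0.36 over the libraries left out). The cause was not tested. Leaving out 1 library at a time gave ranges of called members: higher, 1 to 2 in B cells, 2 to 10 in T cells, 15 to 20 in classical monocytes, 7 to 14 in conventional dendritic cells, 4 to 5 in immature and 23 to 26 in mature neutrophils; lower, 20 to 25, 7 to 15, 0 to 2, 3 to 4, 12 to 17 and 2 to 3 in the same order; differing among classes, 35 to 36; in adenosine, 0 to 1, 0 to 5, 0 to 1, 0 to 0, 0 to 10 and 0 to 2; in the interaction, 0 to 4. A lone library in a group was assumed to vary like the others.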
